A study of Mus musculus with 78 samples.

Results

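The genes described are 8 members of the Notch pathway and of the arterial programme of blood vessels: the Notch ligands Dll4 and Jag1, the receptors Notch1 and Notch4, the Notch target Hey1, and the arterial genes Efnb2, Gja4 and Gja5. They were taken as every probe set whose annotation names 1 of these symbols and no other gene, which gave 17 of the 45101 probe sets on the array. Of these, 13 probe sets of 7 genes passed a filter on low values, and the single probe set of Gja5 did not. RNA of mouse flank was measured on 78 Affymetrix mouse genome arrays, 1 per sample, in a model in which an adenovirus that makes VEGF-A164 (Ad-VEGF-A164) is injected into the skin and blood vessels grow at the site. All mice were athymic nude females (Crl:NU(NCr)-Foxn1nu) aged 4 to 6 weeks. The groups were control flank at day 0 (8 arrays, numbered from 95 on), Ad-VEGF-A164 flank without antibody, called untreated, at days 5, 20 and 60 (8 arrays each, numbered 1 to 8, 49 to 56 and 73 to 80), and the same site in mice given intraperitoneal antibody. G6 was given at 10 mg per kg (8 arrays a day, numbered 9 to 16, 57 to 64 and 81 to 88) and DC101, which is a rat antibody against VEGFR2 of the mouse, at 20 mg per kg (8, 8 and 6 arrays, numbered 17 to 24, 65 to 72 and 89 to 94). The labels place both among antibodies to VEGF receptors and name no target for G6 by itself. There was no empty-vector group. Whether the control flank went uninjected, and whether the day counts treatment or harvest, is not stated. The virus was injected into ears and flank of the same mice. No label links an array to an animal, so p-values measure the spread between arrays, which may in part be technical, and may be too small where arrays share an animal.

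Notch receptors are activated by ligands on a neighbouring cell: the receptor is cut, its inner part enters the nucleus and, with the DNA-binding protein RBPJ, switches on targets of the Hes and Hey families. In growing vessels VEGF raises Dll4 in the leading tip cells, Dll4 restrains sprouting in the cells behind through Notch1, and Jag1 counters Dll4 in this setting. Notch4 is made mainly by endothelial cells. Notch signalling also sets arterial identity, of which the membrane ligand ephrin-B2 (Efnb2) and the gap junction proteins connexin 37 (Gja4) and connexin 40 (Gja5) are markers. In skin, Notch1, Jag1 and Efnb2 are made outside vessels as well, among others in the epidermis and hair follicle.

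Levels are log2(signal + 16), where signal is the deposited intensity of a probe set, and each gene is given by its brightest probe set unless another is named. A level set between 2 genes means nothing on this scale, since probes differ in brightness, so each gene is compared only with itself. A probe set was tested if its signal passed the filter level, 8.44 on the log2 scale, on at least 6 arrays, which 32503 probe sets did. The tissue carried its endothelial markers throughout: of 20 pan-endothelial genes none lay under that level on every array of any group, and their mean level ranged from 10.39 to 11.18 over the control arrays and from 12.89 to 13.45 over untreated day 5. A few arrays stood apart in their tissue makeup. Arrays 51 and 52 of untreated day 20 had a mean level of 4 hair follicle keratin and trichohyalin genes of 9.11 and 8.04, against 14.65 to 16.29 on the other 6, and the highest endothelial means of their group, 13.64 and 13.75 against at most 12.94. Arrays 86 and 87 of G6 day 60 had hair follicle means of 11.97 and 12.46 against at least 15.45 on the other 6, and skeletal muscle means of 11.30 and 11.71 against at least 15.16. RNA quality, read from the ratio of the 3' to the 5' probe set of Actb, also differed between groups: it ran from 1.81 to 3.03 at G6 day 60 and from 1.17 to 1.56 at DC101 day 60, without overlap.

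Dll4, the VEGF-responsive ligand, was highest in untreated tissue at day 5. Its levels, given here and below as the lowest array, the median and the highest array of a group, were 7.75, 8.44 and 8.56 in control and 10.54, 10.995 and 11.35 at untreated day 5. They were 8.92, 9.98 and 10.94 at untreated day 20. At untreated day 60 they were 7.78, 8.52 and 9.28. Untreated day 5 did not overlap control, and untreated day 60 overlapped it. With G6 the levels were 7.70, 8.59 and 8.84 at day 5, 8.41, 8.72 and 9.87 at day 20, and 7.70, 8.48 and 8.65 at day 60. With DC101 they were 9.18, 9.85 and 10.45 at day 5, 8.46, 8.95 and 9.44 at day 20, and 8.31, 8.43 and 8.70 at day 60. Tissue of day 5 thus formed 3 separate layers, untreated above DC101 above G6, with no array of 1 layer reaching another. Of all probe sets, 3.62% did not overlap between DC101 and untreated tissue of that day and 2.16% between G6 and DC101. From highest to lowest group mean the order was untreated day 5, untreated day 20, DC101 day 5, DC101 day 20, G6 day 20, untreated day 60, G6 day 5, DC101 day 60, G6 day 60 and control. Neighbours in that order lay further apart than the larger of their SDs at 2 places only. These were untreated day 5 to untreated day 20 (1.44 SD) and DC101 day 5 to DC101 day 20 (1.81 SD).

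Jag1, the other ligand, had a narrow range. It ran 12.31, 13.31 and 14.14 in control, 14.14, 14.42 and 14.53 at untreated day 5, and 13.73, 14.01 and 14.43 at untreated day 20. At untreated day 60 it ran 12.74, 13.89 and 14.29. Control and untreated day 5 touched without overlapping, untreated day 20 lay in the upper part of the control range and above, and untreated day 60 spread from under the control median to above its highest array. G6 gave 12.62, 12.99 and 13.47 at day 5, 13.55, 13.69 and 14.43 at day 20, and 12.33, 14.12 and 14.88 at day 60. DC101 gave 12.54, 13.32 and 14.28 at day 5, 13.16, 13.71 and 14.69 at day 20, and 12.50, 12.94 and 14.22 at day 60. G6 day 5 lay wholly under untreated day 5, while G6 day 60 ran from near the lowest Jag1 level of the series to its highest. By group mean, untreated day 5 stood 1.63 SD above the next group, untreated day 20. Then came G6 day 60, DC101 day 20, untreated day 60, G6 day 20, DC101 day 5, control, DC101 day 60 and G6 day 5, with each gap smaller than the SD of the neighbours.

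The endothelial receptor Notch4 had a wide range. Its levels were 9.05, 9.92 and 10.16 in control and 13.47, 13.88 and 14.13 at untreated day 5. They were 11.80, 12.97 and 13.93 at untreated day 20 and 7.90, 9.28 and 11.62 at untreated day 60. Both earlier untreated groups lay wholly above control, and the day 60 group spread to either side of it. G6 tissue had 9.21, 9.66 and 11.55 at day 5, 9.43, 10.81 and 12.52 at day 20, and 7.35, 7.99 and 8.88 at day 60. DC101 tissue had 12.33, 12.99 and 13.72 at day 5, 10.60, 11.43 and 12.79 at day 20, and 8.82, 9.53 and 10.37 at day 60. G6 day 5 did not reach the lowest DC101 array of that day, and at G6 day 60 only 3 of 8 arrays exceeded the filter level. The order of group means was untreated day 5, DC101 day 5, untreated day 20, DC101 day 20, G6 day 20, G6 day 5, control, DC101 day 60, untreated day 60 and G6 day 60. Gaps above the larger SD of the neighbours followed untreated day 5 (1.93 SD), untreated day 20 (1.53 SD) and untreated day 60 (1.13 SD).

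Notch1, the receptor shared by vessels and epidermis, moved less. It had 11.68, 12.18 and 12.87 in control, 12.75, 13.29 and 13.44 at untreated day 5, and 12.35, 12.77 and 13.05 at untreated day 20. At untreated day 60 it had 11.34, 12.87 and 13.14. Every untreated group overlapped control. With G6 it had 11.91, 12.16 and 12.75 at day 5, 12.09, 12.58 and 13.26 at day 20, and 11.11, 13.07 and 13.72 at day 60. With DC101 it had 11.58, 12.71 and 13.54 at day 5, 11.79, 12.54 and 13.45 at day 20, and 11.14, 11.65 and 12.55 at day 60. The G6 arrays of day 60 included both the lowest and the highest Notch1 levels of the series, arrays 86 and 82, the former being 1 of the 2 with low hair follicle means. Untreated day 5 stood 1.71 SD above the next group. The remaining order was untreated day 20, DC101 day 5, untreated day 60, G6 day 20, DC101 day 20, G6 day 60, G6 day 5, control and DC101 day 60. It had no gap above 1 SD.

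Hey1, a transcription factor switched on by Notch, had 8.89, 9.72 and 10.29 in control, 11.07, 11.43 and 12.02 at untreated day 5, and 9.87, 10.66 and 11.50 at untreated day 20. At untreated day 60 it had 7.54, 8.97 and 10.47. It was clear of control at day 5 and overlapped it at both later days. G6 gave 7.27, 9.37 and 10.18 at day 5, 8.76, 9.81 and 10.52 at day 20, and 6.54, 6.91 and 8.40 at day 60, where 0 of 8 arrays exceeded the filter level. DC101 gave 10.29, 10.61 and 11.07 at day 5, 8.94, 9.80 and 10.66 at day 20, and 8.56, 9.25 and 9.49 at day 60. At day 60 the G6 arrays thus lay under every DC101 array and also under every control array, where 4.02% and 7.97% of probe sets had no overlap. The order was untreated day 5, untreated day 20, DC101 day 5, DC101 day 20, G6 day 20, control, DC101 day 60, G6 day 5, untreated day 60 and G6 day 60. Gaps above 1 SD came after untreated day 5 (1.19 SD), DC101 day 5 (1.65 SD) and untreated day 60 (1.94 SD).

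Efnb2, the arterial ephrin, had 10.95, 12.03 and 12.74 in control, 13.56, 13.80 and 14.15 at untreated day 5, and 12.88, 13.34 and 13.62 at untreated day 20. At untreated day 60 it had 11.77, 13.12 and 13.47. All arrays of days 5 and 20 lay above control, and 1 of the 8 arrays of day 60, array 75, lay inside its range. Under G6 it had 12.08, 12.36 and 12.73 at day 5, 12.38, 12.82 and 13.64 at day 20, and 11.93, 13.24 and 13.85 at day 60. Under DC101 it had 11.86, 13.17 and 13.95 at day 5, 12.52, 13.18 and 13.66 at day 20, and 11.41, 11.64 and 13.19 at day 60. G6 day 5 arrays stayed within the control range, and most DC101 arrays of day 60 did as well. The order was untreated day 5, untreated day 20, DC101 day 20, DC101 day 5, G6 day 60, untreated day 60, G6 day 20, G6 day 5, control and DC101 day 60. There were gaps above 1 SD after untreated day 5 (2.28 SD) and G6 day 20 (1.15 SD).

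Gja4, connexin 37 of arterial endothelium, had 8.70, 9.47 and 10.31 in control, 12.18, 12.49 and 12.69 at untreated day 5, and 11.01, 12.47 and 13.11 at untreated day 20. At untreated day 60 it had 9.09, 9.71 and 12.48. Days 5 and 20 were wholly above control and day 60 was not, with 1 array, 77, far above the other 7. G6 gave 8.78, 9.55 and 10.85 at day 5, 9.64, 10.99 and 12.23 at day 20, and 8.34, 9.06 and 9.67 at day 60. DC101 gave 11.44, 11.90 and 12.84 at day 5, 10.34, 10.95 and 12.24 at day 20, and 9.14, 9.96 and 11.15 at day 60. The order was untreated day 5, untreated day 20, DC101 day 5, DC101 day 20, G6 day 20, DC101 day 60, untreated day 60, G6 day 5, control and G6 day 60. The gaps above 1 SD were after DC101 day 5 (1.22 SD) and G6 day 20 (1.22 SD). Gja5, connexin 40, could not be followed: its single probe set had signals between 6.72 and 32.04, under the filter level of 331.2 on all 78 arrays, so its groups were not compared.

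**Figure D1:**
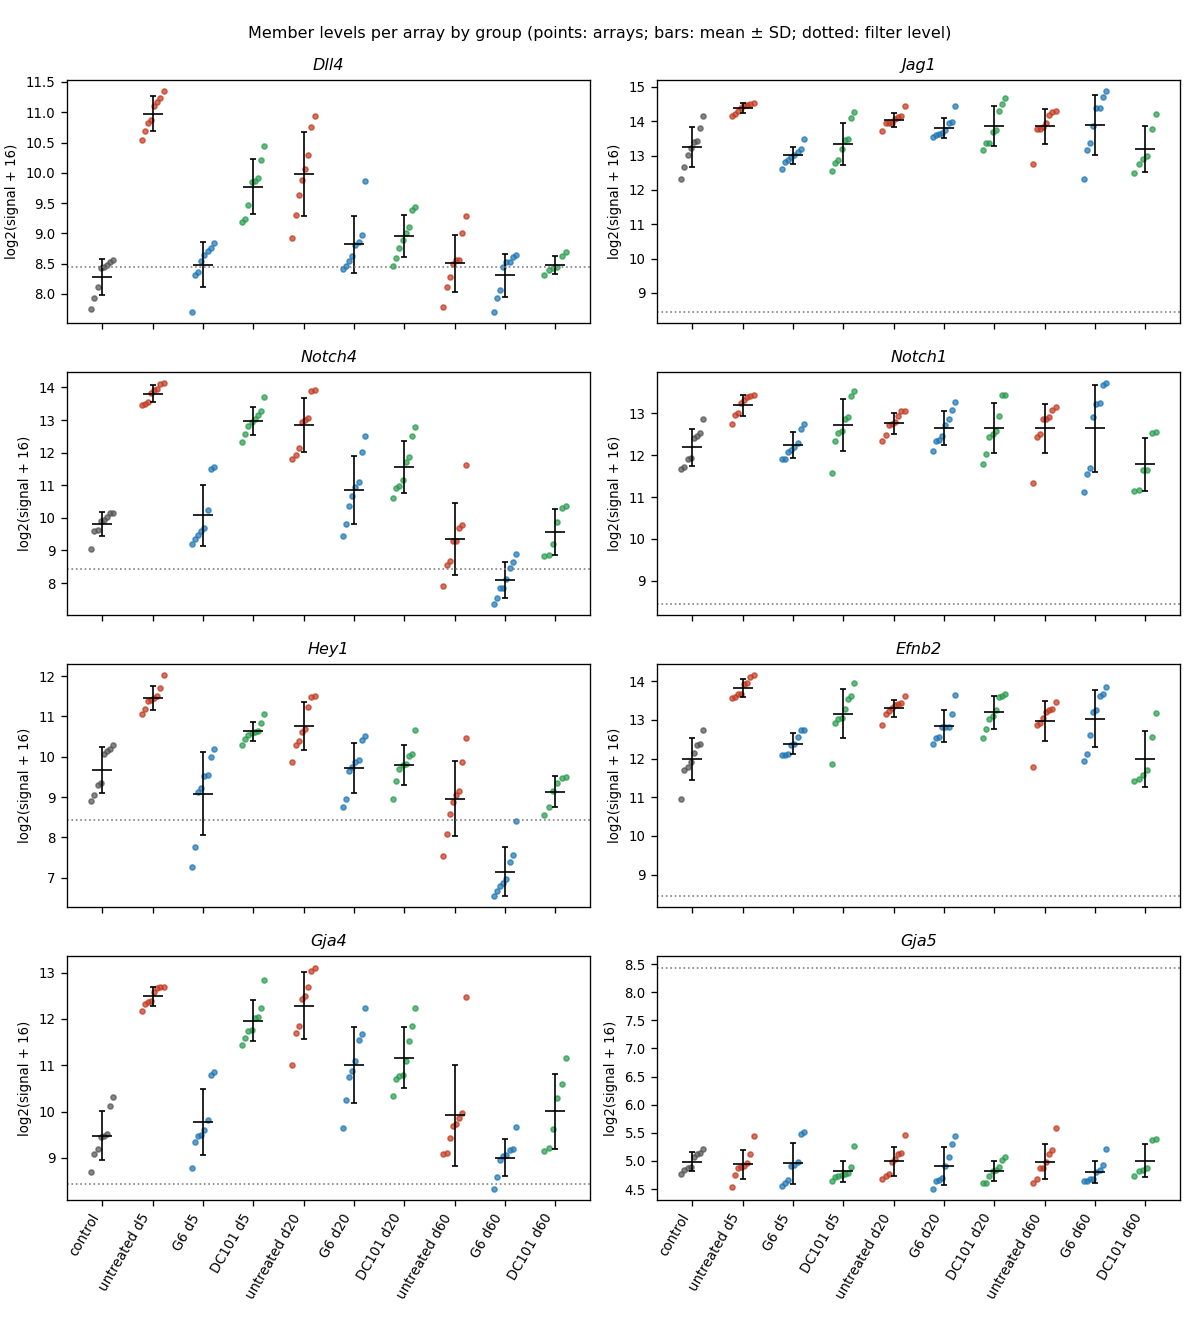
Level of each gene by its brightest probe set, as log2(signal + 16) on the vertical axis of each panel, for the 10 groups on the horizontal axis; points are arrays, bars are the group mean ± SD (n = 8, and 6 for DC101 day 60), and the dotted line is the filter level of 8.44. Dll4, Notch4, Hey1 and Gja4 in the left column fall by day 60, Notch1, Jag1 and Efnb2 in the right column keep day 60 levels near those of day 20 in untreated tissue, and Gja5 lies under the line on all 78 arrays.

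The sequence before the transcription start is given for 4 genes whose changes were large and whose courses differed. The receptor Notch4, the ligand Dll4 and the connexin gene Gja4 overlapped control again at untreated day 60, and most Efnb2 arrays of that group lay above control. With the RNA ratios as covariates that Efnb2 difference was smaller (0.56), as given below. The sequences are from RefSeq (GRCm38.p6) and hold the 250 bases before the annotated start, written 5′ to 3′ on the gene's strand. They lie at chr17:34564045-34564294 on the plus strand for Notch4, chr2:119325534-119325783 on the plus strand for Dll4, chr4:127314040-127314289 on the minus strand for Gja4 and chr8:8661243-8661492 on the minus strand for Efnb2. Capitals mark matches, on either strand, to AGGAAG (a core of ETS factor sites), GGGCGG (the GC box) and TATAAA (the TATA box).
Notch4: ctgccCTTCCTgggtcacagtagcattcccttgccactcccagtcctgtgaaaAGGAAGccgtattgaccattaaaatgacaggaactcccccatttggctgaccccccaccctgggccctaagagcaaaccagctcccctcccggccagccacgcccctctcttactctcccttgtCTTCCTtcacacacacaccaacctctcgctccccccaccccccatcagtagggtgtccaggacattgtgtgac
Dll4: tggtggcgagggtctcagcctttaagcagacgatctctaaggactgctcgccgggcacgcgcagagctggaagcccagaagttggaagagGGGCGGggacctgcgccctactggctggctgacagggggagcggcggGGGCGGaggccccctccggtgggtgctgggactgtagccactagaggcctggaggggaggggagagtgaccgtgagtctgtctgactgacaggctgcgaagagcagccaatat
Gja4: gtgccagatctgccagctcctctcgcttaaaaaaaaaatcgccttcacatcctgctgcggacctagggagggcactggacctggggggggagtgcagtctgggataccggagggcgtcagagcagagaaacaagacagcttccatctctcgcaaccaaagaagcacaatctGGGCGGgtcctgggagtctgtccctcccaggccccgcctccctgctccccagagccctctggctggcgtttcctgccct
Efnb2: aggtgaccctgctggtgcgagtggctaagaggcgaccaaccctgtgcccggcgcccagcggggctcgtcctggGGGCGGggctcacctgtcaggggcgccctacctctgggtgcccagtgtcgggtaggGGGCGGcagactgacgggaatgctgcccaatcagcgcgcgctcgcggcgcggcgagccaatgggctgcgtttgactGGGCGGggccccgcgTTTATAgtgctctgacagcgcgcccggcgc
A promoter entry was found for 7 of the 8 genes, all but Hey1. GGGCGG was in 5 of these 7 windows (Notch1, Dll4, Gja4, Gja5 and Efnb2), and 32.7% of the 32851 promoters of the same length held it. AGGAAG was in 2, Notch4 with 3 matches and Gja5 with 1, against 29.5% of all promoters. TATAAA was in Efnb2 alone among the 7, 30 bases before the start, read on the opposite strand, against 12.4% of all. TGGGAA, the core letters bound by RBPJ, and CACGTG, an E-box, were in 0 of the 7, against 21.6% and 6.02% of all. Longer forms of the RBPJ core (GTGGGAA, in 5.42% of all promoters) and of the ETS core (CAGGAAG, 10.8%) were also searched, as were a forkhead core (TGTTTAC, 3.17%), a SOX core (ATTGTT, 9.42%), a CCAAT box (CCAATG, 11.7%), an octamer core (TTTGCAT, 4.12%) and a GATA core (GATAAG, 6.55%). Of these, CAGGAAG and CCAATG were in 1 of the 7 windows each and the others in 0. Motifs and windows were picked after the levels had been seen, and a match or its absence in this window is a description of letters.

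In untreated Ad-VEGF-A164 tissue all 7 tested genes were higher than control at day 5. Here and below a gene is called higher or lower where the limma test, adjusted over all 32503 probe sets, gave p under 0.05. These 7 calls stand against 48.4% of probe sets called in either direction and 26.7% called higher, and the arrays did not overlap control in 6 of the 7 genes, Notch1 being the exception, against 22.2% of probe sets. By the brightest probe sets Notch4 rose most, by 4.01 ± 0.37 on the log2 scale (SE, n = 8 against 8; adjusted p = 1.5e-14), above the control mean in 8 of 8 arrays as were all 7. Gja4 rose by 3.002 ± 0.33 (adjusted p = 6.9e-12) and Dll4 by 2.70 ± 0.21 (adjusted p = 9.5e-18). The Dll4 mean in control, 8.28, lay under the filter level, so the size of its rise depends on values near background. Efnb2 followed with 1.84 ± 0.24 (adjusted p = 1.9e-09) and Hey1 with 1.80 ± 0.31 (adjusted p = 1.1e-06). Jag1 rose by 1.13 ± 0.25 (adjusted p = 0.00013) and Notch1 by 1.004 ± 0.27 (adjusted p = 0.0015). The order of the genes depends on the probe set, since the other tested probe set of Notch4 rose by 1.62 and that of Dll4 by 3.81, and 1 of 3 for Jag1 was not called (0.37, adjusted p = 0.12). The median of the 7 was 1.84, beside 0.07 over all probe sets tested. With the RNA ratios of Actb and Gapdh as covariates the Notch1 rise was 0.67 with adjusted p = 0.082, and the other 6 stayed called. Markers of other cells moved in the same comparison. The keratinocyte mean of 4 keratin genes, 4 of 4 called higher, ran from 11.50 to 13.96 in control and from 13.51 to 15.29 at day 5 (means 12.76 and 14.28). The macrophage mean, also 4 of 4 higher, ran from 11.47 to 12.87 and from 13.72 to 14.07 without overlap. The adipocyte mean, 2 of 2 tested genes lower, ran from 10.68 to 13.23 and from 9.35 to 10.22. The pericyte mean ran from 12.08 to 12.95 in control and from 13.19 to 13.90 at day 5. The skeletal muscle mean ran from 16.12 to 17.03 and from 14.70 to 15.65. Their part in the result was not tested.

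At day 20 the rise over control was called for 6 of the 7 genes, against 38.1% of probe sets in either direction and 23.4% higher. The arrays of Dll4, Notch4, Efnb2 and Gja4 did not overlap control, against 9.3% of probe sets. Notch4 stood 3.03 ± 0.37 above control (adjusted p = 9.2e-10, 8 of 8 arrays above the control mean, as for each of the 7) and Gja4 2.80 ± 0.33 (adjusted p = 3.7e-10). Dll4 was 1.69 ± 0.21 higher (adjusted p = 1.1e-09), Efnb2 1.31 ± 0.24 (adjusted p = 1.2e-05), Hey1 1.09 ± 0.31 (adjusted p = 0.0032) and Jag1 0.79 ± 0.25 (adjusted p = 0.0093), which was not called by 1421105_at (0.30, adjusted p = 0.24). Notch1, at 0.57 ± 0.27, was not called (adjusted p = 0.088). Against day 5 only 1 of the 7 genes was called in the model of all arrays, Dll4, lower by -1.001 ± 0.21 (adjusted p = 0.00024, 8 of 8 arrays under the day 5 mean), against 17.7% of probe sets called and 7.51% called lower. Notch4 differed from day 5 by -0.98 ± 0.37 (adjusted p = 0.054), and leaving out array 51 or array 52 gave it an adjusted p of 0.028 to 0.029. Without both, Notch4 was -1.33 (adjusted p = 0.011) and Hey1 -0.95 (adjusted p = 0.036) against day 5, so that 3 genes were called. By other probe sets Dll4 was not called here (1421826_at, -0.85, adjusted p = 0.24), while Notch4 (1456263_at, -0.62, adjusted p = 0.0048) and Notch1 (1418633_at, -0.57, adjusted p = 0.047) were lower. A fit on these groups alone called 6 of the 7 genes and array weights called 4, so the count depends on the fit.

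At day 60 Efnb2 was the single gene of the 7 called above control, by 0.98 ± 0.24 (adjusted p = 0.0012, 7 of 8 arrays above the control mean). Of all probe sets 31.4% were called and 17.2% called higher, so the genes were not called more often than these. From day 20 to day 60, Notch4 fell by -3.49 ± 0.37 (adjusted p = 2.2e-11), Gja4 by -2.37 ± 0.33 (adjusted p = 5.3e-08), Hey1 by -1.80 ± 0.31 (adjusted p = 6.2e-06) and Dll4 by -1.47 ± 0.21 (adjusted p = 6.9e-08). That makes 4 of 7 against 22.4% of probe sets in either direction and 13.3% lower. The arrays lay under the day 20 mean in 8 of 8 cases for Notch4, Hey1 and Dll4 and in 7 of 8 for Gja4. Jag1, Notch1 and Efnb2 differed between these days by -0.19 ± 0.25, -0.12 ± 0.27 and -0.33 ± 0.24, none called. The mean of the 20 endothelial genes took a like course, 12.74 ± 0.72 (SD, n = 8) at day 20 and 10.72 ± 0.56 at day 60. In whole tissue, fewer cells of a type and less RNA per cell cannot be told apart. With the RNA ratios as covariates the Efnb2 difference at day 60 was 0.56 (adjusted p = 0.17). The Actb ratio was higher at untreated day 60 than in control, without overlap. Over all probe sets the calls of that comparison went from 10200 to 3870 with these covariates. The part of RNA quality beyond this fit was not tested. Against control, Jag1 at day 60 (0.60) gained a call without any 1 of arrays 75, 97 and 98 (adjusted p 0.017 to 0.038), and Hey1 (-0.71) without any 1 of 74, 77, 98 and 99 (adjusted p 0.015 to 0.047).

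G6 at day 5 was accompanied by lower levels of all 7 tested genes. That stands against 30.1% of probe sets called and 16.8% called lower, and the 2 groups of arrays did not overlap in 6 of the 7, against 10.4% of probe sets. Notch4 was lower by -3.73 ± 0.37 (SE, n = 8 against 8; adjusted p = 1.6e-12), Gja4 by -2.72 ± 0.33 (adjusted p = 1.1e-09), Dll4 by -2.49 ± 0.21 (adjusted p = 4.1e-15) and Hey1 by -2.39 ± 0.31 (adjusted p = 6.7e-09). Efnb2 differed by -1.45 ± 0.24 (adjusted p = 3e-06), Jag1 by -1.38 ± 0.25 (adjusted p = 1.8e-05) and Notch1, whose groups met at 12.75, by -0.95 ± 0.27 (adjusted p = 0.005). For each gene 8 of 8 arrays lay under the untreated mean. The other Notch1 probe set, 1418633_at, was at -0.43 and not called (adjusted p = 0.11). Set against control instead, G6 day 5 tissue had 0 of 7 genes called by limma, and 0 at an unadjusted p under 0.05, where 37.8% of probe sets were called. Those differences ran from -0.59 ± 0.31 for Hey1 to 0.39 ± 0.24 for Efnb2. Without arrays 13 and 14, which had the highest Notch4 levels of the G6 group (11.55 and 11.50, the next 10.23), 1 gene was called there, and by 1456263_at Notch4 was higher with all arrays (0.42, adjusted p = 0.037). The endothelial mean was 11.19 ± 0.43 (SD) with G6 and 13.18 ± 0.19 without at this day, and the keratinocyte mean was 15.46 ± 0.52 and 14.28 ± 0.60. The smooth muscle mean ran from 9.81 to 10.77 with G6 and from 11.25 to 12.10 without. Cnn1, 1 of its 4 genes, lay under the filter level on every array of both groups. The pericyte mean ran from 11.82 to 12.83 with G6 and from 13.19 to 13.90 without. Their part in the result was not tested.

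At day 20 G6 tissue was lower in 4 of the 7 genes, against 7.31% of probe sets called and 4.81% called lower. Notch4 differed by -1.98 ± 0.37 (adjusted p = 0.00034), Gja4 by -1.28 ± 0.33 (adjusted p = 0.0095), Dll4 by -1.16 ± 0.21 (adjusted p = 0.0002) and Hey1 by -1.03 ± 0.31 (adjusted p = 0.027), each in 8 of 8 arrays. Efnb2, Jag1 and Notch1 differed by -0.46 ± 0.24, -0.23 ± 0.25 and -0.12 ± 0.27, none called. The groups overlapped in every one of the 7 genes, and arrays 51 and 52 of the untreated group, which had the lowest hair marker levels, carried its highest Dll4, Notch4, Hey1 and Gja4 levels. Without both, Hey1 was -0.79 (adjusted p = 0.29) and Gja4 -1.02 (adjusted p = 0.17), and Dll4 and Notch4 stayed called. The Hey1 call also ended without any 1 of arrays 51, 52, 56, 58 and 63 (adjusted p 0.069 to 0.098), and a fit on the 2 groups alone called 0 of the 7.

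At day 60 G6 tissue was lower in Notch4, by -1.26 ± 0.37 (adjusted p = 0.019), and in Hey1, by -1.80 ± 0.31 (adjusted p = 0.00014), each in 8 of 8 arrays, 2 of 7 against 9.78% of probe sets called and 6.51% called lower. The other tested Notch4 probe set, 1456263_at, lay on the opposite side, at 0.33 (adjusted p = 0.19), so its direction depends on the probe set. Hey1 lay under the filter level on all 8 G6 arrays, so the size of its difference depends on values near background. Gja4 differed by -0.91 ± 0.33 (adjusted p = 0.063), and Dll4, Efnb2, Jag1 and Notch1 by between -0.20 and 0.06. The Notch4 call ended without array 77 (-0.93, adjusted p = 0.091), without array 86 (adjusted p = 0.052) and with RNA ratios as covariates (-0.87, adjusted p = 0.4), while Gja4 gained one without array 76 or 79 (adjusted p 0.033 to 0.037). Against control, G6 day 60 was lower in Hey1 (-2.51 ± 0.31, adjusted p = 1.1e-09) and Notch4 (-1.71 ± 0.37, adjusted p = 0.0001), both without overlap, against 7.97% of probe sets. Notch4 by 1456263_at was at 0.30, however (adjusted p = 0.14). The brightest Notch4 probe set had a G6 mean of 8.09, under the filter level, so the size of its difference also depends on values near background. G6 day 60 was higher than control in Efnb2 (1.04 ± 0.24, adjusted p = 0.0003, 7 of 8 arrays) and Jag1 (0.64 ± 0.25, adjusted p = 0.034, 6 of 8 arrays). These are 4 of 7 against 45.7% of probe sets called, 25.2% higher and 20.5% lower. The Jag1 call ended without any 1 of arrays 81, 82, 83, 84, 95 and 96 or the last of the control arrays (adjusted p 0.056 to 0.11) and by either other probe set (0.31 and 0.32, adjusted p 0.17 and 0.19), and Notch1 (0.45) gained one without array 86 (adjusted p = 0.035). Of the 4 calls 1 was left with the RNA ratios as covariates. Over all probe sets the calls of G6 day 60 against control then went from 14857 to 622. The Actb ratio was higher at G6 day 60 than in control, without overlap, and its part beyond this fit was not tested.

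DC101 at day 5 was accompanied by lower Dll4, -1.21 ± 0.21 (adjusted p = 1.6e-05), and lower Jag1, -1.04 ± 0.25 (adjusted p = 0.0028), each in 8 of 8 arrays, 2 of 7 against 12.5% of probe sets called and 8.0% called lower. The Dll4 arrays did not overlap, against 3.62% of probe sets, and the Jag1 arrays did. By 1421105_at Jag1 was at -0.17 and not called (adjusted p = 0.64). By 1421826_at Dll4 was at -1.16, close to the value of the brightest probe set, with a wider SE of 0.50 and adjusted p = 0.11. Notch4 (-0.83 ± 0.37), Hey1 (-0.83 ± 0.31), Efnb2 (-0.67 ± 0.24), Gja4 (-0.53 ± 0.33) and Notch1 (-0.48 ± 0.27) were not called, with adjusted p from 0.054 to 0.31, and Efnb2 gained a call without any 1 of arrays 21, 22 and 24 (adjusted p 0.023 to 0.041). The count was higher in other fits: a fit on these groups alone and array weights each called 6 of 7. Other probe sets called Notch4 (1456263_at, -0.64, adjusted p = 0.0054) and Efnb2 (1419638_at, -0.74, adjusted p = 0.031) lower. Against control 5 of the 7 genes remained higher under DC101 at day 5, against 40.9% of probe sets called and 20.9% called higher: Notch4 by 3.18 ± 0.37 (adjusted p = 1.1e-10), Gja4 by 2.48 ± 0.33 (adjusted p = 6e-09), Dll4 by 1.49 ± 0.21 (adjusted p = 1.8e-08), Efnb2 by 1.16 ± 0.24 (adjusted p = 6.7e-05, 7 of 8 arrays) and Hey1 by 0.97 ± 0.31 (adjusted p = 0.0085). Apart from Efnb2 each was above the control mean in 8 of 8 arrays. Jag1 was at 0.09 ± 0.25 and Notch1 at 0.53 ± 0.27 from control, not called, and Notch1 gained a call without array 20 (adjusted p = 0.036).

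At day 20 DC101 tissue was lower in 4 of the 7 genes, Notch4 by -1.27 ± 0.37 (adjusted p = 0.025), Gja4 by -1.12 ± 0.33 (adjusted p = 0.026), Dll4 by -1.02 ± 0.21 (adjusted p = 0.00094) and Hey1 by -0.96 ± 0.31 (adjusted p = 0.046), each in 8 of 8 arrays. The background was 6.31% of probe sets called and 4.26% called lower, and the groups overlapped in all 7 genes. Jag1, Notch1 and Efnb2 differed by -0.19, -0.12 and -0.11. A fit on these groups alone called 0 of the 7, Dll4 included. With the RNA ratios as covariates Dll4 stayed called and Notch4 (adjusted p = 0.11), Gja4 (adjusted p = 0.091) and Hey1 (adjusted p = 0.12) did not, and Notch4 by 1456263_at was at -0.47 (adjusted p = 0.074). The calls also changed with single arrays: without arrays 51 and 52, 0 of 7 were left, with Dll4 at -0.73 (adjusted p = 0.06) and Notch4 at -0.91 (adjusted p = 0.29). The Notch4 call ended without any 1 of arrays 51, 52, 66, 68 and 69 (adjusted p 0.055 to 0.089), Gja4 without any 1 of 51, 52, 55, 56, 66, 68, 70 and 72 (0.051 to 0.088), and Hey1 without any 1 of 50, 51, 52, 55, 56, 65, 66, 68, 69, 70 and 72 (0.054 to 0.14). Dll4 kept its call in each of these single omissions.

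At day 60 the genes called under DC101 were Efnb2 and Notch1. For neither was the change of the difference from day 20 to day 60 called (Efnb2 -0.88, adjusted p = 0.077). Efnb2 was lower by -0.99 ± 0.26 (SE, n = 6 against 8; adjusted p = 0.0075, 5 of 6 arrays) and Notch1 by -0.87 ± 0.29 (adjusted p = 0.039, 6 of 6 arrays), 2 of 7 against 12.9% of probe sets called and 7.73% called lower, while Dll4, Notch4, Hey1 and Gja4 differed by between -0.03 and 0.22. Against control, DC101 day 60 had 0 of 7 called by limma and 0 at an unadjusted p under 0.05, where 18.4% of probe sets were called. The Notch1 call ended without any 1 of arrays 73, 76, 77, 78, 79, 80, 89, 90, 91 and 92 (adjusted p 0.052 to 0.13), and Jag1 (-0.66) gained one without array 75 or 93 (adjusted p 0.023 to 0.031). Neither call was made by the other probe set of its gene, Efnb2 1419638_at at -0.68 (adjusted p = 0.072) and Notch1 1418633_at at -0.13 (adjusted p = 0.76). With the RNA ratios as covariates neither gene was called (Efnb2 -0.57, adjusted p = 0.37, and Notch1 -0.57, adjusted p = 0.47), and the Actb ratio, 1.58 to 2.57 in untreated tissue, did not overlap that of DC101 tissue. Its part beyond this fit was not tested.

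Set against each other, the antibodies differed at day 5, where G6 tissue was lower in 5 of the 7 genes, against 13.1% of probe sets called and 7.51% called lower. Notch4 was lower with G6 than with DC101 by -2.90 ± 0.37 (adjusted p = 2.1e-08), Gja4 by -2.19 ± 0.33 (adjusted p = 1.3e-06), Hey1 by -1.55 ± 0.31 (adjusted p = 0.00019) and Dll4 by -1.29 ± 0.21 (adjusted p = 4.9e-06). In these 4 the arrays did not overlap, against 2.16% of probe sets. Efnb2 differed by -0.78 ± 0.24 (adjusted p = 0.022, 8 of 8 arrays), and that call ended without array 22 or 24 (adjusted p 0.054 to 0.066), without arrays 13 and 14 (-0.73, adjusted p = 0.058) and by 1419638_at (-0.49, adjusted p = 0.18). Jag1 (-0.33 ± 0.25) and Notch1 (-0.48 ± 0.27) were not called, but both other Jag1 probe sets were lower (-0.58 each, adjusted p 0.025 and 0.04). Doses differed, 10 against 20 mg per kg, so the antibodies were not compared at a matched dose.

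At day 20 none of the 7 genes differed between the antibodies by limma, and 0 did at an unadjusted p under 0.05, with differences from -0.71 ± 0.37 for Notch4 to 0.00 ± 0.27 for Notch1, where 0.375% of probe sets were called. Each antibody group of day 20 set against control had the same 4 genes called higher, Dll4, Notch4, Efnb2 and Gja4, with 31.3% of probe sets called and 18.2% called higher for G6, and 28.8% and 16.4% for DC101, and both comparisons share the control arrays. Gja4 was 1.52 ± 0.33 above control with G6 (adjusted p = 0.00028) and 1.68 ± 0.33 with DC101 (adjusted p = 7.3e-05), in 8 of 8 arrays each. With G6 the Dll4 call (0.54) ended without any 1 of arrays 59, 60, 62, 95, 97 and 98 (adjusted p 0.053 to 0.15) and that of Notch4 (1.06) without array 60 or 62 (0.065 to 0.085), and Jag1 gained one without array 98 (0.56 with all arrays, 0.032 as adjusted p without it). By other probe sets the calls of Dll4 ended with G6 (0.52, adjusted p = 0.45) and with DC101 (0.25, adjusted p = 0.75), that of Notch4 ended with G6 (0.26, adjusted p = 0.24), and Jag1 gained one with G6 (1421106_at, 0.47, adjusted p = 0.04). With DC101 Jag1 (0.61) gained one without any 1 of arrays 65, 68, 72, 97 and 98 (adjusted p 0.025 to 0.047).

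At day 60 G6 tissue was lower than DC101 tissue in Hey1 (-1.98 ± 0.33, adjusted p = 5.4e-06), Notch4 (-1.48 ± 0.40, adjusted p = 0.0025) and Gja4 (-0.999 ± 0.36, adjusted p = 0.022), each in 8 of 8 arrays. It was higher in Efnb2 (1.05 ± 0.26, adjusted p = 0.0012, 7 of 8 arrays), Notch1 (0.86 ± 0.29, adjusted p = 0.016, 5 of 8 arrays) and Jag1 (0.69 ± 0.27, adjusted p = 0.039, 6 of 8 arrays). The other Notch4 probe set was at 0.21 (adjusted p = 0.38), on the opposite side, the other Notch1 probe set at 0.33 (adjusted p = 0.26) and those of Jag1 at 0.28 and 0.06 (adjusted p 0.28 and 0.86). The 6 of 7 calls stand against 36.7% of all probe sets, 18.8% higher and 17.9% lower. The Actb ratios of these groups did not overlap, and with the ratios as covariates 0 of the 7 genes and 0 of 32503 probe sets were called by limma, down from 11943 probe sets, so at day 60 antibody and RNA quality cannot be told apart here. Hey1 was then at -1.70 (adjusted p = 0.15), Efnb2 at 0.51 (adjusted p = 0.66) and Jag1 at 0.08 (adjusted p = 0.97). The call of Notch1 ended without any 1 of arrays 82, 83, 89 and 91 (adjusted p 0.055 to 0.062), that of Jag1 without any 1 of 81, 82, 83, 84, 89, 90, 91 and 92 (0.075 to 0.14) and that of Gja4 without array 91 or 92 (0.068 to 0.11).

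**Figure D2:**
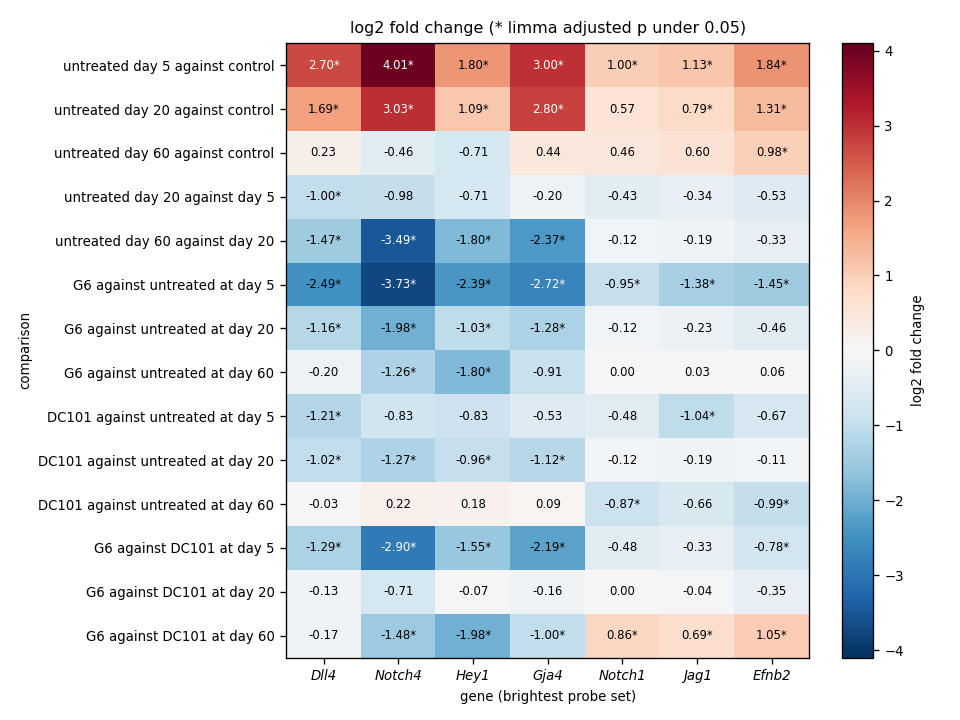
Heat map of the log2 fold change of the brightest probe set of each gene (columns) in 14 comparisons (rows), with red for higher in the first-named group, blue for lower, and an asterisk where the limma adjusted p was under 0.05. All 7 genes carry an asterisk in untreated day 5 against control and in G6 against untreated at day 5, and none does in G6 against DC101 at day 20.

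The change of the antibody difference between days was tested as an interaction. Between day 5 and day 20 the G6 difference shrank in 5 of the 7 genes, against 8.63% of probe sets called and 4.53% with a positive change: Notch4 by 1.76 ± 0.52 (adjusted p = 0.025), Gja4 by 1.43 ± 0.47 (adjusted p = 0.041), Hey1 by 1.36 ± 0.44 (adjusted p = 0.038), Dll4 by 1.34 ± 0.29 (adjusted p = 0.0023) and Jag1 by 1.15 ± 0.36 (adjusted p = 0.033). Between day 20 and day 60 the DC101 difference shrank in Dll4, by 0.995 ± 0.30 (adjusted p = 0.017), and Notch4, by 1.49 ± 0.54 (adjusted p = 0.047), 2 of 7 against 16.8% of probe sets called and 8.35% with a positive change. The DC101 change from day 5 to day 20 and the G6 change from day 20 to day 60 had 0 of 7 called by limma, with 1 each at an unadjusted p under 0.05, against 2.47% and 0.169% of probe sets. Dll4 kept both its calls whichever single array was left out. Its DC101 call nevertheless ended with the RNA ratios as covariates, with adjacent arrays averaged and without arrays 51 and 52, each of which left 0 of the 7 called. By other probe sets the G6 changes of Dll4 (1.77, adjusted p = 0.098) and Notch4 (0.46, adjusted p = 0.22) and the DC101 change of Notch4 (0.59, adjusted p = 0.081) were not called, the DC101 change of Dll4 was (2.50, adjusted p = 0.012), and Notch4 gained the G6 change from day 20 to day 60 (1.08, adjusted p = 0.027). For G6, the call of Gja4 ended without any 1 of arrays 1, 4, 5, 6, 8, 9, 10, 12, 16, 49, 53, 54, 59, 60, 61 and 62 (adjusted p 0.051 to 0.078), of Hey1 without any 1 of 1, 5, 7, 12, 15, 16, 53, 54, 55, 59, 60 and 61 (0.05 to 0.092) and of Jag1 without array 16 or 62 (0.054 to 0.055). Efnb2 (0.99) gained a call without array 15, 58 or 64 (0.039 to 0.049) and the later change of Dll4 (0.96) without array 54 (0.044). For DC101, the call of Notch4 ended without any 1 of arrays 50, 51, 52, 55, 56, 66, 68, 69, 70, 73, 75, 76, 78, 79, 90, 91 and 92 (0.057 to 0.1). Calls were gained by Hey1 (1.14) without 54, 71, 74, 77 or 93, by Gja4 (1.21) without 54, 71, 77, 89 or 94 and by Efnb2 (-0.88) without 68, 75, 93 or 94 (0.0076 to 0.049).

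The genes were next set against the vessels as a whole. For each array the mean level of the 20 endothelial genes was subtracted from the level of the gene, and the difference between groups was given an exact permutation p, two-sided and adjusted for the 63 comparisons made, of which 27 were called, 12 higher and 15 lower. Only these genes were put through this test, so no share over all genes stands beside the counts. A gene that itself moves little can be called where the subtracted mean moves far. At untreated day 5 the endothelial mean rose by 2.34, and 3 genes rose by more: Notch4 by a further 1.67 (adjusted p = 0.0016), Gja4 by 0.67 (adjusted p = 0.0049) and Dll4 by 0.36 (adjusted p = 0.034). For Notch4 this holds by the brightest probe set alone: by 1456263_at its rise of 1.62 was smaller than the endothelial one, a relative change of -0.71 (adjusted p = 0.002, 8 of 8 arrays). Notch1, Jag1 and Hey1 rose by less than the endothelial genes, with relative changes of -1.33 (adjusted p = 0.0016), -1.21 (adjusted p = 0.0044) and -0.54 (adjusted p = 0.021), and Efnb2 (-0.50, adjusted p = 0.17) was not called. Each of these relative levels lay on 1 side of the control mean in 8 of 8 arrays. At untreated day 20, Notch4 (1.14, adjusted p = 0.0016) and Gja4 (0.91, adjusted p = 0.0016) were again above the endothelial change, and Notch1 (-1.32, adjusted p = 0.021), Jag1 (-1.10, adjusted p = 0.043, 7 of 8 arrays) and Hey1 (-0.80, adjusted p = 0.0037) under it, in 8 of 8 arrays but for Jag1. Notch1, Jag1 and Hey1 themselves changed by 0.57, 0.79 and 1.09 there and the subtracted endothelial mean by 1.89, so none of the 3 fell. Notch4 by 1456263_at was again on the other side (-0.89, adjusted p = 0.0037), and Dll4 by 1421826_at was relatively higher (1.06, adjusted p = 0.011) where the brightest probe set was at -0.20. At day 60, where the endothelial mean differed from control by -0.12, Efnb2 (1.10, adjusted p = 0.046, 6 of 8 arrays) and Gja4 (0.56, adjusted p = 0.034, 8 of 8) were relatively higher, Efnb2 not so by 1419638_at (0.92, adjusted p = 0.079).

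Under G6 at day 5 the endothelial mean was lower by -1.99, and the same scale put Notch4 lower by a further -1.74 (adjusted p = 0.0016, 8 of 8 arrays), Gja4 by -0.73 (adjusted p = 0.0016, 8 of 8) and Dll4 by -0.50 (adjusted p = 0.014, 7 of 8). Notch4 by 1456263_at was relatively higher instead, by 0.79, 0.45 and 1.09 at days 5, 20 and 60 (adjusted p 0.002, 0.04 and 0.017, in 8 of 8 arrays each), so its relative direction under G6 depends on the probe set. Notch1 (1.04, adjusted p = 0.0098, 7 of 8) and Jag1 (0.61, adjusted p = 0.034, 6 of 8) were relatively higher, both being lowered by less than the endothelial mean. At day 20 Notch4 was relatively lower with G6 (-0.78, adjusted p = 0.021, 7 of 8) and Notch1 (1.08, adjusted p = 0.046) and Jag1 (0.97, adjusted p = 0.036) relatively higher, both in 8 of 8. Notch1 and Jag1 themselves changed by -0.12 and -0.23 there and the subtracted endothelial mean by -1.20. Their relative rise is thus that of the subtracted mean and not a rise of either gene. Dll4, Hey1 and Gja4 lay within 0.16 of the endothelial change, but Dll4 by 1421826_at was relatively lower (-1.24, adjusted p = 0.03, 7 of 8). At day 60 Hey1 was relatively lower (-1.04, adjusted p = 0.034, 8 of 8) and Dll4 relatively higher (0.56, adjusted p = 0.046, 7 of 8), the latter not by 1421826_at (0.29, adjusted p = 0.59). Dll4 itself changed by -0.20 there and the subtracted endothelial mean by -0.76, so the gene did not rise. The Dll4 group means, 8.31 with G6 and 8.51 untreated, lay near the filter level. The relative call of Dll4 thus depends on values near background. Efnb2 by 1419638_at was relatively higher with G6 at day 5 (0.75, adjusted p = 0.02) and day 20 (0.92, adjusted p = 0.04). Under DC101 at day 5 Dll4 was lower than the endothelial change by -0.68 (adjusted p = 0.0028, 8 of 8) and Hey1 by -0.31 (adjusted p = 0.029, 8 of 8). Gja4 was at 0.00 from it. At day 20 Notch4 (-0.45, adjusted p = 0.011) and Gja4 (-0.31, adjusted p = 0.014) were relatively lower in 8 of 8 arrays. Dll4 by 1421826_at was lower by -1.88 (adjusted p = 0.0012), and Notch4 by 1456263_at was at 0.35 and not called (adjusted p = 0.13). At day 60 none of the 7 was called, with Efnb2 (-1.36) and Notch1 (-1.23) at adjusted p = 0.052 and 0.053. The untreated arrays serve in the comparisons with control and with both antibodies, so an untreated level enters them with opposite sign. With the median of the 20 genes in place of the mean, the 3 Dll4 calls other than that of DC101 at day 5 ended (adjusted p 0.066 to 0.18), as did those of Hey1 at DC101 day 5 (-0.15, adjusted p = 0.39) and Gja4 at DC101 day 20 (-0.26, adjusted p = 0.078). It gained 3 calls, for Efnb2 in G6 at day 5 (0.78) and DC101 at day 60 (-1.40) and for Dll4 in DC101 at day 60 (-0.44). Quantile normalization or a pseudocount of 64 ended those of Dll4 and Jag1 in untreated tissue at days 5 and 20 and of Hey1 in DC101 at day 5 and G6 at day 60 (adjusted p 0.05 to 0.18).

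**Figure D3:**
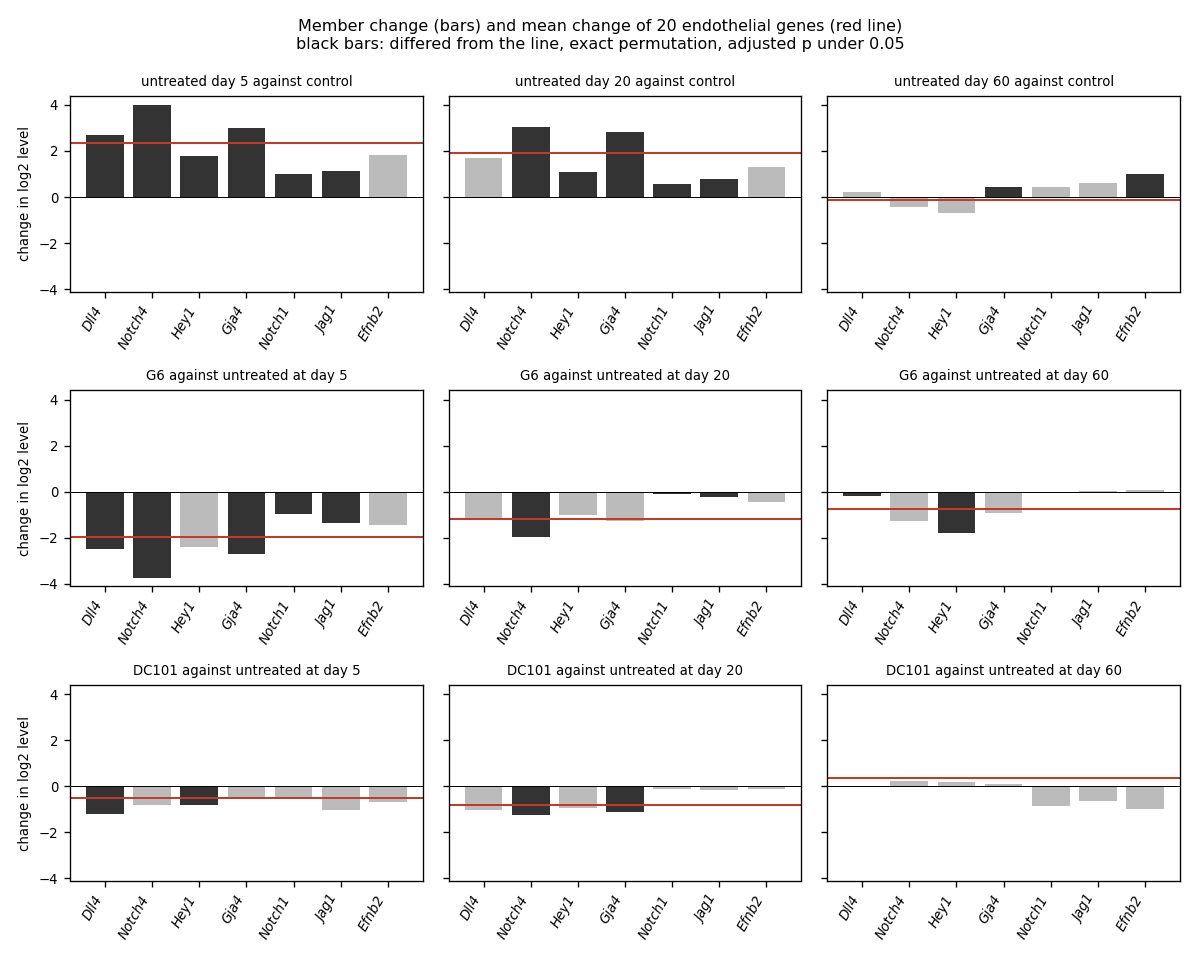
Change in log2 level of each gene (bars) in 9 comparisons, beside the mean change of the 20 endothelial genes (red line); black bars are genes whose level relative to that mean differed between the groups by exact permutation (adjusted p under 0.05), grey bars are not called. Each gene is shown by its brightest probe set; at untreated day 5 Notch4, Gja4 and Dll4 pass the line of 2.34 and Notch1 and Jag1 stop short of it.

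Arrays of 1 group also varied together, in 2 sets of genes noticed after the values were seen and so given with no test. Over the deviations of 78 arrays from their group means, Dll4, Notch4, Hey1 and Gja4 had pairwise Pearson correlations from 0.50 (Dll4 with Hey1) to 0.85 (Notch4 with Gja4). Notch1, Jag1 and Efnb2 had 0.82 to 0.88 among themselves. Between the sets the correlations ran from -0.24 to 0.13. The first set followed the endothelial mean, with 0.67 for Hey1, 0.69 for Dll4, 0.82 for Notch4 and 0.88 for Gja4, and the smooth muscle mean of 4 contractile genes with 0.50 to 0.75. The second set had -0.37 to -0.21 with the endothelial mean and 0.35 to 0.55 with the hair follicle mean. With the keratinocyte mean the second set had -0.19 to -0.02 and the first -0.26 to -0.07. The endothelial and hair follicle means had -0.59 with each other. The Actb ratio had correlations of 0.23 to 0.34 with the second set and -0.14 to -0.08 with the first. Points share arrays and their normalization, and arrays may share animals.

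**Figure D4:**
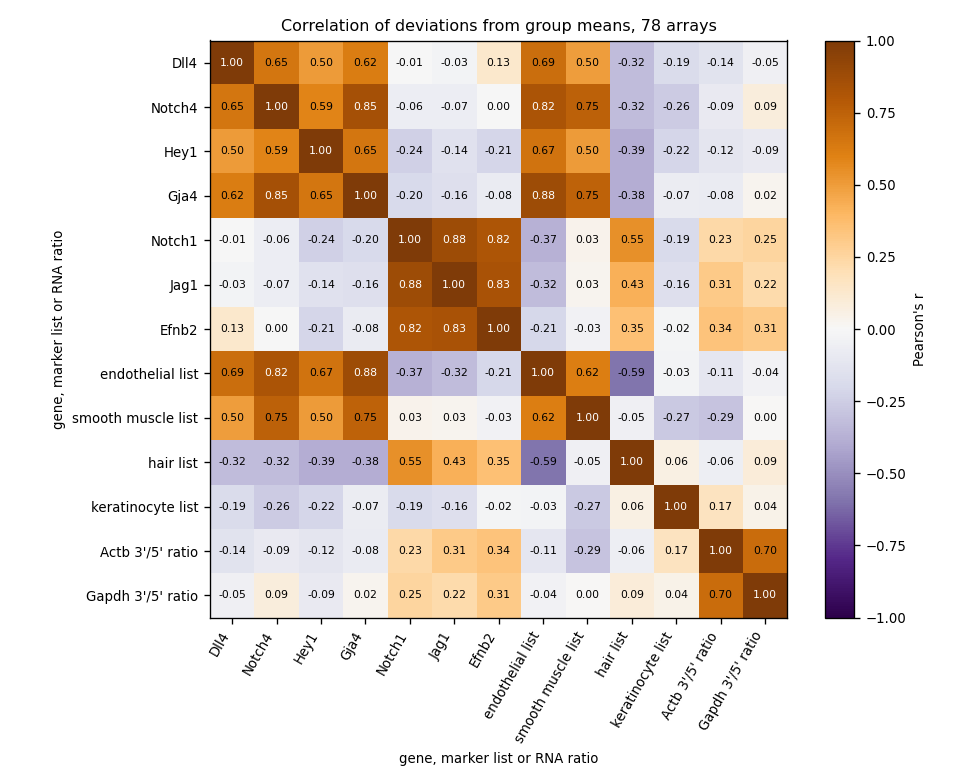
Pearson correlation of deviations from group means over 78 arrays between the 7 tested genes, the mean levels of 4 marker lists and the 3'/5' ratios of Actb and Gapdh, all on the log2 scale, on both axes; orange is positive and purple negative. A block of Dll4, Notch4, Hey1 and Gja4 with the endothelial and smooth muscle lists stands apart from a block of Notch1, Jag1 and Efnb2.

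Probe sets of the same gene disagreed in places. Of Notch4, 1449146_at rose by 4.01 at untreated day 5 and 1456263_at, which is dimmer, by 1.62 ± 0.16 (adjusted p = 6.7e-13). The 2 lay on opposite sides of 0 in the comparisons of G6 day 60 with untreated, DC101 and control tissue. The remaining one, 1436901_at, passed the filter level on 4 of 78 arrays and was not tested. Of Dll4, 1421826_at moved further than 1421827_at, by 3.81 at untreated day 5 and -4.20 with G6 at day 5. It exceeded the filter level on 30 of 78 arrays and 1421827_at on 61, so the size of its changes depends on values near background. Of Jag1, 1434070_at and 1421106_at were called higher at untreated day 5 (1.13 and 0.86) and 1421105_at was not (0.37, adjusted p = 0.12). Of Notch1, 1418633_at and 1418634_at lay apart with DC101 at day 60, at -0.13 and -0.87. The tested Efnb2 probe sets, 1419639_at and 1419638_at, rose by 1.84 and 1.63 at untreated day 5, and 1449548_at and 1449549_at passed the filter level on 3 and 1 of 78 arrays and were not tested. Hey1, Gja4 and Gja5 had 1 probe set each.

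**Figure D5:**
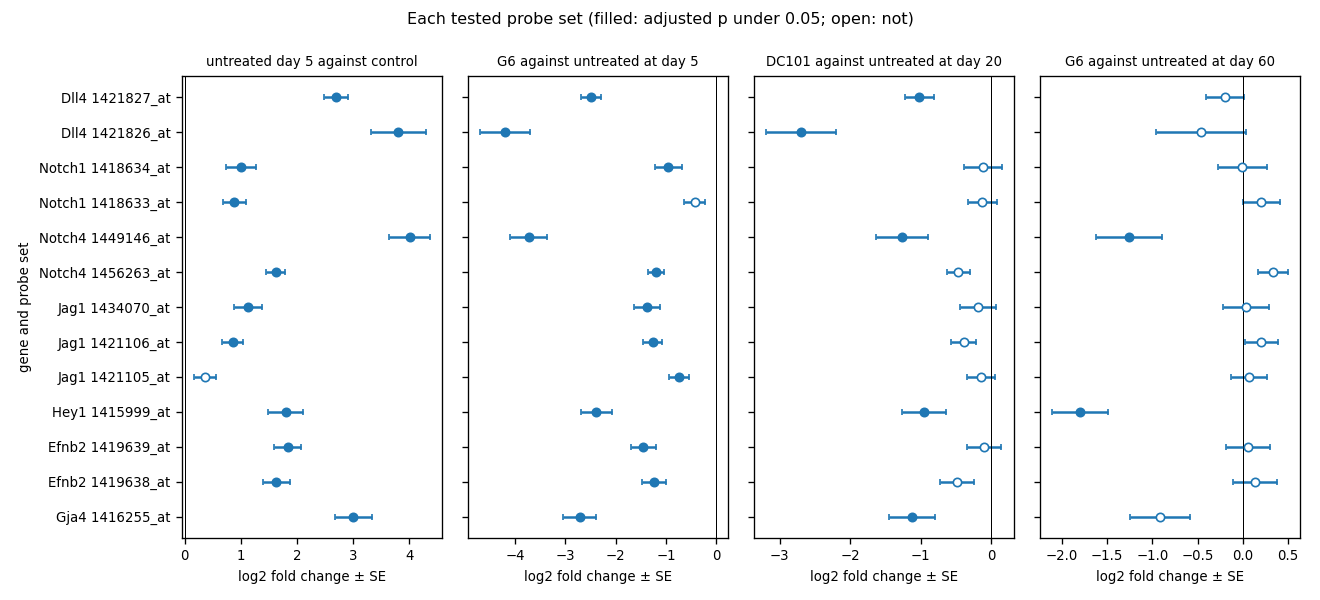
Log2 fold change ± SE of each of the 13 tested probe sets (rows) in 4 comparisons (panels), filled where the limma adjusted p was under 0.05. All but 1 of the 13, the Jag1 probe set 1421105_at, are filled at untreated day 5, and at G6 against untreated day 60 the 2 Notch4 probe sets lie on opposite sides of 0.

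The rest of the Notch pathway was read from lists taken from general knowledge, with the count of genes called in each direction. Over all 32503 probe sets the shares called higher and lower against control were 26.7% and 21.7% at untreated day 5, 23.4% and 14.8% at day 20, and 17.2% and 14.2% at day 60. With G6 against untreated tissue they were 13.3% and 16.8% at day 5, 2.5% and 4.81% at day 20, and 3.27% and 6.51% at day 60. With DC101 they were 4.52% and 8.0%, 2.05% and 4.26%, and 5.22% and 7.73%. The share of each list is given in brackets to be read against these. A list counts 1 probe set per gene, the brightest, and these shares count every tested probe set, so the units differ. Of 8 other receptors and ligands, 4 rose (50%) and 1 fell (12.5%) at untreated day 5, with a median of 0.33 beside 0.07 over all probe sets. Dlk1, a Notch ligand relative, rose by 1.49 (adjusted p = 2.1e-07) and Notch3, the receptor of mural cells, by 1.41 (adjusted p = 3.4e-11), and Notch2 fell by -0.43 (adjusted p = 0.0013). Under G6 at day 5, 3 of these were lower (37.5%) and 2 higher (25%), Notch3 at -1.12 (adjusted p = 1.3e-07) and Notch2 at 0.80 (adjusted p = 7.2e-08), and under DC101 at day 5 2 were lower (25%) and 1 higher (12.5%). At day 20 G6 had 3 lower (37.5%) and 1 higher (12.5%) and DC101 3 lower, with Dlk1 at -1.45 (adjusted p = 6e-05) and -1.40 (adjusted p = 0.00011). At day 60 0 of the 8 were called against control or under G6 by limma, and 1, Notch2 at 0.52 (adjusted p = 0.0028), under DC101.

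Of 15 tested genes that glycosylate, cleave or ubiquitinate the receptors and ligands, 11 rose (73.3%) and 1 fell (6.67%) at untreated day 5, with a median of 0.34. The Fringe genes Mfng and Lfng, which tune the response to Dll and Jag ligands, rose by 1.302 (adjusted p = 4e-07) and 1.03 (adjusted p = 3.1e-07), and Neurl1a, a ubiquitin ligase, fell by -1.54 (adjusted p = 5.8e-07). At day 20 8 rose (53.3%) and 2 fell (13.3%), and at day 60 5 (33.3%) and 2 (13.3%), among the latter Neurl1a at -1.25 (adjusted p = 0.00011). Under G6 at day 5 2 were higher (13.3%) and 4 lower (26.7%), with Mfng at -1.14 (adjusted p = 2.5e-05), or 40% in either direction beside 30.1% of all probe sets. DC101 at day 5 had 1 higher (6.67%) and 2 lower (13.3%). At day 20 Mfng was lower with G6 (-0.85, adjusted p = 0.0075) and with DC101 (-0.91, adjusted p = 0.0043). Of 14 tested nuclear partners and inhibitors, 3 rose (21.4%) and 2 fell (14.3%) at untreated day 5, both shares under those of all probe sets, with a median of 0.05 and with Maml1, a coactivator, at 0.71 (adjusted p = 4.1e-08). Under G6 at day 5 4 were higher (28.6%) and 1 lower (7.14%), with Rbpj at 0.59 (adjusted p = 0.00094).

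Of 9 tested genes listed as Notch targets, other than Hey1, 6 rose at untreated day 5 (66.7%) and 7 at day 20 (77.8%), and 0 fell by limma at either day, with a median of 0.93 at both beside 0.07 and 0.09 over all probe sets. Heyl, a relative of Hey1, rose by 1.62 at day 5 (adjusted p = 5e-10), Ccnd1, cyclin D1, by 2.04 (adjusted p = 1.7e-14), and Hey2 by 1.93 at day 20 (adjusted p = 5.8e-06). At day 60 2 were higher (22.2%, near the 17.2% of all probe sets), Id1 at 0.76 (adjusted p = 0.008) and Snai2 at 0.60 (adjusted p = 0.027). Under G6 5 were lower at day 5 (55.6%), 3 at day 20 (33.3%) and 1 at day 60 (11.1%), and under DC101 4 (44.4%), 3 and 3 (33.3% each), with none higher in these 6 comparisons. Nrarp, a Notch-induced feedback inhibitor, was lower by -1.37 with G6 (adjusted p = 2.3e-05) and -1.01 with DC101 (adjusted p = 0.0043) at day 5, and by -1.25 with DC101 at day 60 (adjusted p = 0.0014).

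Of 21 other arterial genes, Hey2 among them, 13 rose (61.9%) and 2 fell (9.52%) at untreated day 5, with a median of 0.93, and 18 rose at day 20 (85.7%), with a median of 1.001. At day 60 3 rose (14.3%) and 2 fell (9.52%), both shares under those of all probe sets, with a median of 0.15. The chemokine receptor Cxcr4 rose by 3.58 at day 5 (adjusted p = 9.5e-17) and the transcription factors Sox18 and Sox17 by 2.66 (adjusted p = 2.1e-11) and 2.19 (adjusted p = 4.4e-09) at day 20. Tmem100, an endothelial membrane protein, fell by -2.91 at day 5 (adjusted p = 3.1e-09) and was higher with G6 (1.84, adjusted p = 0.00018) and with DC101 (1.74, adjusted p = 0.0012) at that day. Under G6 12 genes were lower (57.1%) and 2 higher (9.52%) at day 5, 7 lower at day 20 (33.3%) and 8 lower at day 60 (38.1%). Under DC101 5 were lower at day 5 (23.8%), 6 at day 20 (28.6%) and 1 at day 60 (4.76%), and 1, 0 and 1 were higher (4.76%, 0% and 4.76%). Sox18 was lower by -2.32 with G6 (adjusted p = 1.3e-09) and -1.23 with DC101 (adjusted p = 0.0015) at day 5.

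For each gene the 3 genes of most similar level over the 78 arrays were taken from the 14695 genes with a tested probe set, by Pearson correlation. They were Sez6l2 (0.93), Robo4 and Stc1 for Dll4, Cdh5 (0.98), Esam and Mmrn2 for Notch4, Mmrn2 (0.91), Efr3b and Adgrf5 for Hey1, and Gjc1 (0.94), Egfl7 and Col4a2 for Gja4. For Notch1 they were Plxna2 (0.91), Nrarp and Unc5b, for Jag1 Plekhg1 (0.89), Nrarp and St8sia6, and for Efnb2 Nrarp (0.89), Unc5b and Adgrl2. Robo4, Cdh5, Esam, Mmrn2 and Egfl7 are among the 20 pan-endothelial genes. Nrarp was among the 3 for each of Notch1, Jag1 and Efnb2.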

How the data were processed

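Each deposited value is a linear intensity, the MAS5 signal of a probe set, which the authors computed in GCOS 1.3, per the submitters' processing notes; the trimmed mean of every array is 1500. Analysis used log2(signal + 16). Genes were named from the platform annotation, 34958 of 45101 probe sets having 1 symbol, 932 several and 9211 none. Of them 32503 were kept, with a signal over 331.2 (percentile 40 of the whole table) on 6 or more arrays. 1 limma model (3.58.1, R 4.3.3) over all 78 arrays and 10 groups with an intensity trend gave 24 two-sided contrasts, adjusted by Benjamini-Hochberg over 32503 probe sets, threshold 0.05. Each gene is named by its brightest probe set. Shares of probe sets called count every tested probe set and not 1 per gene, so they differ in unit from counts of genes. Levels relative to 20 endothelial genes were tested by exact permutation (Python 3.11.15). In each list, the 2 genes changing most in each direction past the threshold could be named in comparisons with control or untreated tissue. The genes, lists and rules were chosen with earlier results of these data known. The model was tested on simulated data. Arrays give no counting depth, so their number limits the precision. Array medians ran from 454.85 to 582.58, and no 2 arrays correlated above 0.972. Alternatives covered pseudocount, filter, normalization, probe sets, array weights, arrays left out, adjacent arrays averaged, RNA ratios as covariates and the groups in the fit. Replicate numbers are not shared between groups, so nothing was paired.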

Additional observations from a re-analysis of the deposited data

Results flagged for a closer look

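Single arrays stood far from the rest of their group in 6 of the 70 sets of gene and group examined, by the gap to the nearest array over the range of the group, and chance alone gives about 1 in 20. Array 16 was lowest in Dll4 at G6 day 5 (7.70, next 8.31), and array 60 was highest in Dll4 at G6 day 20 (9.87, next 8.98) and had the highest endothelial mean of its group (12.48, the others at most 11.78). In untreated tissue at day 60, array 75 was lowest in Notch1 (11.34, next 12.44), Jag1 (12.74, next 13.76) and Efnb2 (11.77, next 12.88), with a hair follicle mean of 14.61 against at least 16.18 on the other 7 arrays. Array 77 of the same group was highest in Gja4 (12.48, next 9.98), with a smooth muscle mean of 14.71 against at most 11.48 on the other 7. The part of these markers was not tested.

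Antibody differences changed between days in 7 of 28 tests of the change itself. The G6 difference at day 20 against day 5 changed by 1.34 in Dll4, 1.76 in Notch4, 1.15 in Jag1, 1.36 in Hey1 and 1.43 in Gja4, and the DC101 difference at day 60 against day 20 by 0.995 in Dll4 and 1.49 in Notch4, each toward a smaller deficit or none.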

How the results depend on the processing

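Counts are of the 7 genes called. With the RNA ratios as covariates they went from 1 to 0 for untreated day 60 against control, from 2 to 1 for G6 and 2 to 0 for DC101 against untreated at day 60, from 4 to 1 for DC101 at day 20, from 6 to 0 for G6 against DC101 at day 60, from 4 to 1 for G6 day 60 against control, and from 2 to 0 for the DC101 change from day 20 to 60. Averaging adjacent arrays gave G6 at day 20 2, G6 at day 60 1, DC101 at day 20 1, DC101 at day 60 0, G6 against DC101 at day 60 3, G6 day 20 against control 2, the G6 change from day 5 to 20 1 and the DC101 change from day 20 to 60 0. Only the groups compared in the fit gave untreated day 20 against day 5 6, G6 at day 20 0 and at day 60 1, DC101 at day 5 6, at day 20 0 and at day 60 1, and the DC101 change from day 20 to 60 1. Array weights gave 3 for untreated day 60 against control, 4 for untreated day 20 against day 5, 6 for DC101 at day 5, 1 for the DC101 change from day 5 to 20 and 7 for that from day 20 to 60. A 2-fold minimum gave 0 for untreated day 60 against control and for DC101 at day 60, 3 for G6 against DC101 at day 60, 2 for G6 day 20 against control and 1 for the DC101 change from day 20 to 60. Averaging the probe sets of each gene gave 2 for untreated day 20 against day 5, 1 for G6 and for DC101 at day 60 and 4 for DC101 at day 5. No filter gave 1 for DC101 at day 60, 3 for the G6 change from day 5 to 20 and 1 for the DC101 change from day 20 to 60, and a pseudocount of 64 gave 2 for untreated day 20 against day 5. Alternatives added with the data known left out arrays: without 77, untreated day 60 against control had 2, G6 and DC101 at day 60 1 each and the DC101 change from day 20 to 60 4; without 79, DC101 at day 60 and the DC101 change had 1 each; without 13 and 14, G6 day 5 against control had 1; without 51 and 52, untreated day 20 against day 5 had 3, G6 at day 20 2, DC101 at day 20 0 and the DC101 change from day 20 to 60 0.

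Leaving out 1 array at a time gave 1 to 3 for G6 at day 60, 1 to 4 for DC101 at day 20, 1 to 3 for DC101 at day 60, 3 to 6 for G6 against DC101 at day 60, 2 to 4 for G6 day 20 against control, 2 to 6 for the G6 change from day 5 to 20, 1 to 4 for the DC101 change from day 20 to 60, 1 to 3 for untreated day 60 against control, 1 to 2 for untreated day 20 against day 5 and 0 to 1 for the G6 change from day 20 to 60. The fold changes that reversed were those of Notch4 by 1456263_at, 0.33 for G6 against untreated and 0.21 for G6 against DC101, both at day 60. With other probe sets, an alternative added with the data known, the level relative to the endothelial genes reversed for Notch4 by 1456263_at (-0.71 at untreated day 5, -0.89 at day 20, 0.79, 0.45 and 1.09 under G6 at days 5, 20 and 60, 0.35 under DC101 at day 20) and for Dll4 by 1421826_at (1.06 at untreated day 20, -1.24 under G6 at day 20). The other counts stayed within 1.5 times under these settings, and the cause of the changes was not tested. Quantile normalization moved the median of all probe sets most for untreated day 20 against control, by -0.07. No paired analysis was possible because the groups share no replicate numbers.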

Other observations

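Genes of venous and lymphatic endothelium took mixed courses beside the arterial ones. Of 11 such genes, 4 rose (36.4%) and 3 fell (27.3%) at untreated day 5, against 26.7% and 21.7% of all probe sets, and 6 rose (54.5%) and 1 fell (9.09%) at day 20, against 23.4% and 14.8%. Flt4, VEGFR3, rose by 3.08 (adjusted p = 6.3e-12) and the apelin receptor gene Aplnr by 2.67 (adjusted p = 7.6e-12) at day 5, and the lymphatic factor Prox1 by 2.70 at day 20 (adjusted p = 2.5e-07). Vwf and the venular chemokine receptor Ackr1 fell at day 5, by -1.49 (adjusted p = 2.4e-05) and -1.46 (adjusted p = 1.4e-10). G6 at day 5 had 4 higher (36.4%) and 3 lower (27.3%), against 13.3% and 16.8%, with Ackr1 at 1.45 (adjusted p = 1.2e-09), Selp, P-selectin, at 1.17 (adjusted p = 1.1e-06) and Flt4 at -1.77 (adjusted p = 3.3e-05). DC101 at day 5 had 2 higher (18.2%, against 4.52%), Vwf at 0.86 (adjusted p = 0.044) and Ackr1 at 0.65 (adjusted p = 0.0085), and 0 lower by limma.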
